A study of Petunia x hybrida with 12 samples.

Results

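Of 32928 petunia gene models, 106 were read in control roots of W115, the wild type, and hardly at all in the ram1 mutant. A gene was taken into this group when its total gene reads summed to at most 3 over all 6 ram1 libraries and averaged at least 30 over the 3 W115 control libraries. RNA was sequenced from roots of Petunia hybrida 15 days after inoculation with the fungus Rhizophagus irregularis, in 4 groups of 3 libraries. These were ram1 mycorrhizal, ram1 control without the fungus, W115 mycorrhizal and W115 control. The ram1 plants carried the ram1-2 allele. The replicates of mycorrhizal roots were separate plants, which were inoculated from nurse plants according to the study's account of its design. All plants grew in the same mixture of sand and soil and received the same weekly fertilizer. The line in which ram1-2 arose is not given in the sources used here, so the mutation and the genetic background of the mutant cannot be told apart. The reads were aligned to transcripts of another species, Petunia axillaris, so a gene without reads may be missing, silent or too different from the reference to be aligned, and these cannot be told apart either.

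In arbuscular mycorrhiza a soil fungus grows into the root cortex and forms branched arbuscules inside host cells, through which the plant receives phosphate and other nutrients. RAM1 is a transcription factor of the GRAS family that is needed for the full development of arbuscules and for the activation of many genes expressed in them. The 106 genes were not chosen for induction by the fungus, because the rule asked for reads in W115 roots that had none.

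The check of the labels used RAM1 and 4 genes that are known from arbuscules. RAM1 (Peaxi162Scf00420g00650.1) had 7.67 CPM (counts scaled to library size) in mycorrhizal ram1 roots and 117.4 in mycorrhizal W115 roots, and 0.236 and 0.217 CPM in the control roots of ram1 and W115. The phosphate transporter gene PT4 had 6.92 and 606 CPM in mycorrhizal ram1 and W115 roots, RAM2 0.546 and 288, the ABC transporter gene STR 8.37 and 209, and the ammonium transporter gene AMT2 0.086 and 180.1. In control roots PT4 had 4.38 ± 2.14 CPM in ram1 and 13.2 ± 11.3 CPM in W115 (SD, n = 3 each, adjusted p = 0.0615), so it was read without the fungus in both lines. RAM2 had no read in control roots of either line, while STR had 0.0794 and 0.0820 CPM and AMT2 0.0521 and 0.0820 CPM in control roots of ram1 and W115. Libraries held 7152267 to 13391147 total gene reads, which are the reads counted on gene models. Replicates of a group differed by more than counting noise, as their chi-square divided by its degrees of freedom was 7.0 to 45.9, and ram1 control replicate 3 and ram1 mycorrhizal replicate 1 stood apart most.

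The 106 genes were nearly without reads in ram1, while most of them were well read in W115 with and without the fungus. In mycorrhizal W115 roots 87 averaged 30 or more reads and 3 averaged below 10, and 2 had a W115 library without a read. Together they had 55 reads in the 3 mycorrhizal and 59 in the 3 control libraries of ram1, against 34116 reads in mycorrhizal and 42425 in control libraries of W115. Scaled to the total reads as in CPM, this was 1.78 and 1.54 in ram1 and 949 and 1139 in W115. No read at all was found in ram1 for 46 genes, while 22 genes had 1 read, 22 had 2 and 16 had 3. The few reads were spread over the ram1 libraries (13 to 24 in each), with or without fungus. These counts follow from the rule and carry no test. They amount to 0.586% of the 18084 genes with a mean of at least 30 reads in W115 control roots. With the limits for the lines swapped, 125 genes were read in ram1 control roots and not in W115, so line-specific reads occurred in both directions.

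**Figure D1:**
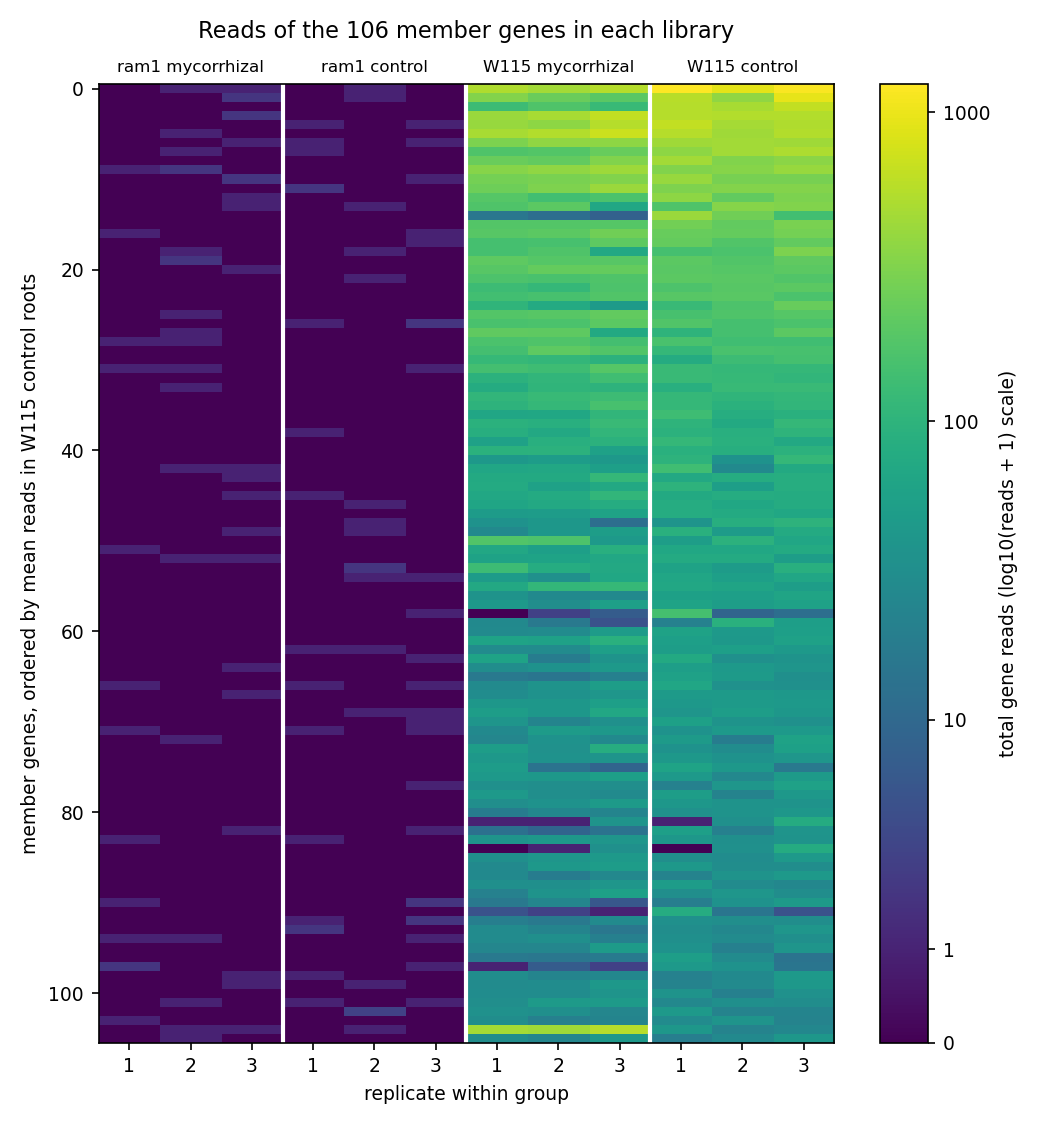
Total gene reads of the 106 genes (rows, ordered by their mean in W115 control roots) in each of the 12 libraries (columns, 3 replicates per group), coloured on a log10(reads + 1) scale. The 6 ram1 columns hold 0 to 3 reads per gene and the 6 W115 columns are filled almost throughout, since 104 of the genes had reads in all 6 W115 libraries.

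The genes were mostly of low to middle expression in W115. Their mean reads in control roots ranged between 30 and 1111 with a median of 66.5, and 37 genes had 100 or more. In RPKM, which scales reads to gene length and library size, the median was 8.85 with a range of 0.892 to 101, against a median of 18.1 over all genes with at least 30 control reads. Their coding length had a median of 789 bases against 1170 bases, and 13 genes (12.3% against 2.89%) were shorter than 300 bases. The genes varied somewhat more between replicates than others, with a median coefficient of variation of 18.0% against 11.3% in W115 control roots. The comparison was not matched for read depth, and the part of counting noise in this difference was not tested. At the limits of the rule, a carbohydrate-binding protein gene (Peaxi162Scf00449g00043.1) was just inside with a mean of 30 control reads, and a protein kinase gene (Peaxi162Scf00668g00443.1) with no ram1 read was just outside with 29.3. On the side of ram1, a gene for a DUF584 protein (Peaxi162Scf00331g00061.1) with 1102 mean control reads was left out for 4 reads in ram1. A further 75 genes with 30 or more control reads had 4 to 10 reads in ram1.

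Many of the genes had no known function. A description was missing, or was only unknown or hypothetical protein, for 37 of them (34.9%), against 12.5% of the genes with at least 30 control reads. The highest in RPKM was one of these (Peaxi162Scf00417g01341.1, coding length 435 bases), with 411, 370 and 557 reads in mycorrhizal and 634, 478 and 526 reads in control W115 roots and 2 reads in all ram1 libraries. Another (Peaxi162Scf00498g00062.1) had 479, 536 and 694 reads in mycorrhizal and 556, 451 and 547 in control roots, with 1 read in ram1. For both genes the mycorrhizal and control libraries of W115 overlapped. Within the reference transcripts 83 of the genes had at least 99% unique reads, but 14 had less than 90% (13.2% against 5.59%). The pair of UPF0184 genes (Peaxi162Scf00414g00006.1 and Peaxi162Scf00645g00018.1) had 16.2% and 2.96% unique reads, so the counts of each are uncertain.

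The annotated genes covered metabolism, signalling and defence, each with few members. Genes with an NB-ARC or disease resistance annotation, which encode intracellular immune receptors, had 3 members (2.83% against 0.785% of the genes with 30 or more control reads). Cytochrome P450 genes, whose products oxidise many plant compounds, had 4 members (3.77% against 1.27%), and 2-oxoglutarate dioxygenase genes had 3 (2.83% against 0.647%). Protein kinases had 4 (3.77% against 4.34%), peptidases 1, transporters 2 and transposons 1. The lists of UDP-glycosyltransferases, ribosomal proteins, F-box proteins and transcription factors counted none. The lists follow a few domain entries and words and are not complete. The F-box list missed the F-box/kelch-repeat member Peaxi162Scf00047g00814.1, and the transcription factor list missed the ethylene-responsive factor and the AP2/B3-like gene among the members. The transporter count is made up of an aquaporin and, through the word carrier, 3-oxoacyl-[acyl-carrier-protein] synthase 3, and it leaves out purine permease 10. The kinase list includes methylthioribose kinase, a metabolic enzyme (Peaxi162Scf00152g00332.1), and the disease resistance list misses an R1 gene. The P450 list includes Peaxi162Scf00002g00221.1 and the kinase list Peaxi162Scf00003g05356.1 by a domain entry alone. Both are described as unknown protein and are also counted among the 37 genes without a known function. Counted after the values had been seen, 5 members were HXXXD-type acyltransferases, of 63 such genes with 30 or more control reads. Likewise 3 members carried a DUF2359 annotation, of 5 such genes.

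Among the immune receptor genes, the NB-ARC gene on scaffold 668 (Peaxi162Scf00668g00444.1) was the most abundant. It had 423, 492 and 638 reads in mycorrhizal and 553, 542 and 546 in control roots of W115, against 0, 0 and 2 in mycorrhizal and none in control roots of ram1. The difference between the treatments of W115 was within the spread of the replicates (log2 fold change -0.05, SE 0.19, adjusted p = 0.899). Only 60.9% of its reads were unique, so a part may come from related receptor genes. A CC-NBS-LRR gene (Peaxi162Scf00503g00515.1) had 336, 375 and 438 reads in mycorrhizal and 316, 342 and 408 in control W115 roots, with 1, 2 and 0 reads in mycorrhizal ram1 roots and none in ram1 control roots. The other (Peaxi162Scf00264g00520.1) was at the lower end with 30, 34 and 21 against 34, 30 and 34 reads in W115 and 3 reads in all of ram1. In all 3 receptor genes the mycorrhizal and control libraries of W115 overlapped.

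Several of the more abundant members had descriptions outside the gene lists, and a shared function was not tested. A gene for a cAMP-regulated phosphoprotein 19-related protein (Peaxi162Scf00585g00044.1) had 80.7 ± 15.3 RPKM in mycorrhizal and 76.7 ± 3.53 RPKM in control roots of W115 (SD, n = 3 each) and 2 reads in ram1. ISY1 (Peaxi162Scf00751g00215.1), a homologue of a pre-mRNA splicing factor, had 191, 230 and 227 reads in mycorrhizal and 198, 186 and 205 in control W115 roots, against a single read in ram1. An acid phosphatase/vanadium-dependent haloperoxidase-related gene (Peaxi162Scf00887g00014.1) and an RNA ligase/cyclic nucleotide phosphodiesterase family gene (Peaxi162Scf00022g00037.1) had no ram1 read at all. The first averaged 27.6 ± 1.06 RPKM in mycorrhizal and 24.5 ± 0.88 in control roots, the second 20.3 ± 3.73 and 27.0 ± 2.56 RPKM. An NAD(P)H dehydrogenase (quinone) gene (Peaxi162Scf00257g01623.1) had 21.5 ± 2.01 and 24.3 ± 2.73 RPKM. A gene annotated by its best database hit as extra-large GTP-binding protein 3 (Peaxi162Scf00803g00422.1), a plant form of G protein alpha subunits, had 24.0 ± 0.642 and 25.6 ± 5.98 RPKM. None of these genes passed the test for a response to the fungus.

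Other described members with many reads had lower values with the fungus that did not pass. A gene annotated for guanyl-nucleotide exchange factors (Peaxi162Scf00280g00008.1) had 240, 224 and 318 reads in mycorrhizal and 462, 324 and 355 in control roots of W115 (adjusted p = 0.0882). A Rossmann-fold gene with a short-chain dehydrogenase domain (Peaxi162Scf00045g10226.1) had 103, 77 and 48 against 124, 170 and 235 reads (adjusted p = 0.0799). Neither had a read in ram1, and in both genes the mycorrhizal libraries lay below the control libraries once scaled to depth.

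None of the cytochrome P450 and dioxygenase members passed the test for a response to the fungus in W115. Among the cytochrome P450 genes, a short model of 195 bases (Peaxi162Scf00002g00221.1) is described only as unknown protein and was listed by its domain entry. It had 73, 111 and 116 reads in mycorrhizal and 70, 63 and 51 in control W115 roots (log2 fold change 0.73, SE 0.23, adjusted p = 0.0673) and no read in ram1. The CYP72A gene (Peaxi162Scf00491g00026.1) had 31, 37 and 41 against 47, 48 and 43 reads, with 73.7% unique reads, and another P450 gene (Peaxi162Scf00015g01514.1) had 30, 24 and 16 against 32, 26 and 41. The dioxygenase genes had 77, 57 and 73 against 100, 53 and 83 (Peaxi162Scf01251g00014.1), 50, 14 and 9 against 62, 43 and 17 (Peaxi162Scf00188g01224.1) and 32, 21 and 24 against 30, 39 and 23 reads (Peaxi162Scf00538g00111.1).

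The aquaporin gene NIP1-2 (Peaxi162Scf01329g00003.1), for a channel protein of membranes, had no ram1 read. In W115 it had 44, 50 and 44 reads in mycorrhizal and 100, 37 and 114 in control roots, so the treatments overlapped (adjusted p = 0.214). Of 20 alternatives 19 left it without a call, with adjusted p up to 0.446. It passed only without control replicate 2, the lowest control library (0.0249). An aspartyl protease gene (Peaxi162Scf00156g00312.1) had 70, 77 and 108 against 74, 81 and 79 reads, and methylthioribose kinase, which recycles methionine, had 94, 95 and 57 against 90, 86 and 96. Both were without a call.

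Several members varied from plant to plant. In 11 genes the highest W115 control library had 3 or more times the reads of the lowest, but the share among other genes is not given here. Fe superoxide dismutase 2 (Peaxi162Scf00304g00917.1), which detoxifies superoxide, was not among these 11, as its ratio was 1.98. It had 175, 207 and 71 reads in mycorrhizal and 172, 340 and 317 in control roots. A transposon gene of the CACTA, En/Spm type (Peaxi162Scf01130g00016.1) had 1, 1 and 39 reads in mycorrhizal and 1, 35 and 79 in control roots. A second gene with the same domain (Peaxi162Scf01265g00013.1) had 0, 1 and 35 against 0, 35 and 79 reads. Both had 35 or more reads in the same 3 W115 libraries and at most 1 in the other W115 libraries. Neither had a read in ram1, and with such a spread a response to the fungus was not detectable (log2 fold change -1.49, SE 1.38 for the first gene).

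Whether the genes respond to the fungus in W115 was tested with edgeR's quasi-likelihood test on all 22954 genes with sufficient reads. All 106 genes were among them. Of these, 1 was higher (0.943%) and 9 were lower (8.49%) in mycorrhizal roots, while 96 did not pass. Over all tested genes 12.6% were higher and 9.14% lower, and among genes with at least 30 control reads the shares were 11.6% and 11%. The 46 members without a ram1 read gave the test fewer libraries from which to estimate the spread. Their power was therefore not equal to that of other genes, and the shares are not strictly comparable. More members were called with the W115 libraries alone, as given in the last section, but without the share over all genes in that fit. The mycorrhizal libraries had no part in the choice of the genes, but the control libraries did, so that genes near the limit were picked for high control reads. Without overlap between the replicates of the treatments 10 genes were higher and 23 lower, against 21.5% and 23% of the genes with at least 30 control reads. The median log2 fold change was -0.16 (-0.03 among the genes with 30 or more control reads), and 78 genes were within 1.5-fold. The sums of marker lists differed between the treatments of W115. Genes were listed by words in their descriptions, such as Casparian strip or phosphate transporter for root and chlorophyll a/b binding for leaf. The paper reports repression of phosphate transporter pathways in mycorrhizal wild type roots, so root list genes may also respond to the fungus themselves. PT4, described as phosphate transporter 1, went the other way, with 606 CPM in mycorrhizal and 13.2 CPM in control W115 roots. Whether it is part of the root list is not given here. A list of 46 root genes summed to between 788 and 885 CPM in mycorrhizal and between 1012.5 and 1074 CPM in control libraries of W115, with 3 and 4 of the genes at 0. A list of 47 leaf genes summed to between 99.8 and 144 CPM in mycorrhizal and between 62.3 and 82.7 CPM in control libraries of W115, with 17 and 15 of the genes at 0. The part of these differences in the calls was not tested. In these bulk root samples fewer cells of a type, less RNA per cell and regulation of the listed genes cannot be told apart.

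**Figure D2:**
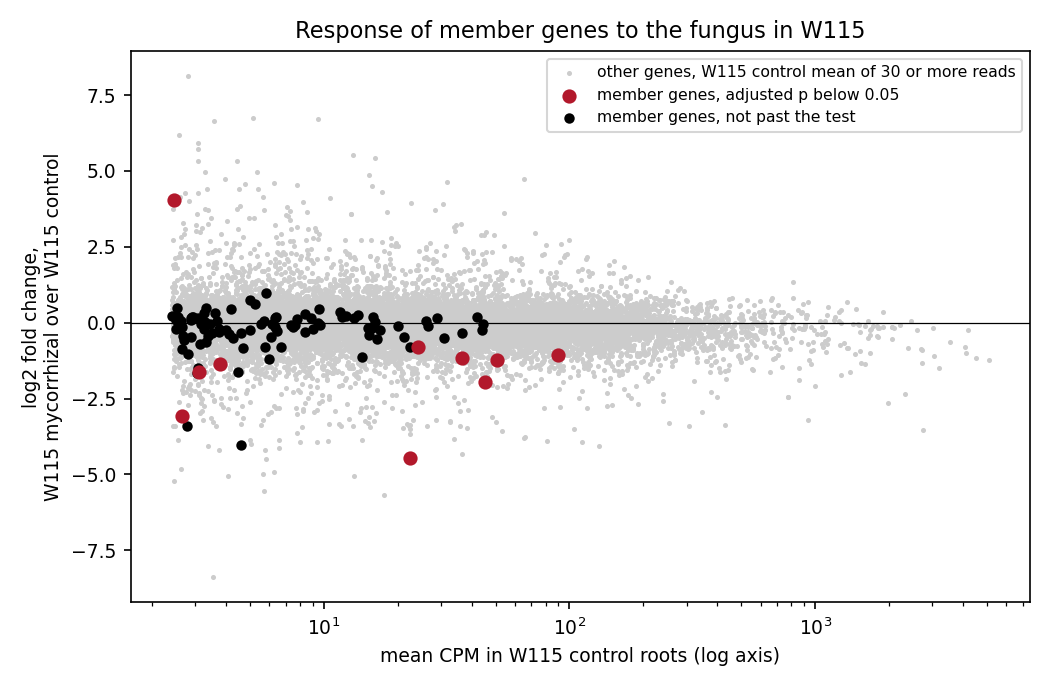
Log2 fold change between mycorrhizal and control roots of W115 (vertical axis) against the mean CPM in W115 control roots (horizontal log axis) for each gene with at least 30 control reads. The 96 members that did not pass the test (black) lie mostly near 0, with 9 called members below and purine permease 10 above (red).

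Purine permease 10 (Peaxi162Scf00242g00510.1) was the only member with a call for higher expression in mycorrhizal W115 roots. Purine permeases are membrane proteins that transport nucleobases and, in some cases, cytokinins. The gene had 473, 445 and 552 reads in mycorrhizal W115 roots, against 42, 23 and 26 in control roots. In ram1 it had 0, 1 and 1 reads with and 0, 1 and 0 reads without the fungus. The W115 treatments were far apart, at 41.0 ± 3.30 CPM in mycorrhizal and 2.46 ± 0.829 CPM in control roots (16.7-fold, log2 fold change 4.05, SE 0.28, adjusted p = 1.58e-06). It entered the group at the limit, with a mean of 30.3 control reads. The next gene model, Peaxi162Scf00242g00511.1 for the ALG14 subunit of an N-acetylglucosamine transferase of protein glycosylation, was also a member. This gene did not share the response, with 39, 44 and 41 reads in mycorrhizal and 42, 34 and 38 reads in control roots of W115. It had 1 read each in mycorrhizal and control roots of ram1. The models on both sides of the pair were read in both lines, an O-acetyltransferase gene (Peaxi162Scf00242g00415.1) with 76.4 CPM in ram1 and 61.8 CPM in W115 control roots, and a DUF1296 kinase-related gene (Peaxi162Scf00242g00913.1) with 97.6 and 82.6 CPM.

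Genes of the opposite kind put the purine permease gene in context. A mean of 30 or more reads in mycorrhizal W115 roots and a control mean below 30 held for 932 genes. Of these, 63 (6.76%) had at most 3 reads in ram1. In 35 of the 63 the W115 control mean was below 3 reads, and 44 were called higher in mycorrhizal W115 roots. They were chosen on high mycorrhizal and low control reads, which favours such calls, so the counts are a description. The share called higher over all 932 genes was not counted. RAM1, PT4, RAM2, STR and AMT2 were not among the 63, as each had more than 3 reads in ram1.

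A protein kinase gene (Peaxi162Scf00387g00312.1) showed the largest decrease among the called members. It had 16, 12 and 8 reads in mycorrhizal W115 roots, against 420, 263 and 144 in control roots, and no read in any ram1 library. All 3 mycorrhizal libraries were far below the control libraries, although the control libraries differed among themselves (1.03 ± 0.432 against 22.5 ± 11.4 CPM, log2 fold change -4.45, SE 0.52, adjusted p = 0.00114). The neighbouring ARM repeat gene (Peaxi162Scf00387g00313.1) was read in both lines and was higher in ram1, with 49.0 CPM against 20.0 CPM in W115 control roots (log2 fold change 1.29, adjusted p = 1.16e-05).

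The gene annotated as 3-oxoacyl-[acyl-carrier-protein] synthase 3 (Peaxi162Scf00133g00527.1), the condensing enzyme that starts fatty acid synthesis in plastids, had the most reads of all members. Its best database hit is shared by 14 gene models, so the enzyme it encodes is not certain. The gene had 530, 453 and 553 reads in mycorrhizal W115 roots, against 1234, 920 and 1179 in control roots (log2 fold change -1.06, SE 0.18, adjusted p = 0.0019). In ram1 it had 3 reads in all. The ethylene-responsive transcription factor gene (Peaxi162Scf00017g03011.1), which carries an AP2/ERF-type DNA-binding domain, had 24.2, 23.5 and 28.5 RPKM in mycorrhizal W115 roots, against 46.7, 60.3 and 62.0 RPKM in control roots (log2 fold change -1.15, SE 0.22, adjusted p = 0.00339). It had 1 read in mycorrhizal and 1 in control roots of ram1. For both genes the mycorrhizal libraries of W115 were all lower than the control libraries.

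Cytokinin dehydrogenase 5 (Peaxi162Scf00189g00922.1), which degrades cytokinins, had 325, 239 and 198 reads in mycorrhizal W115 roots, against 567, 377 and 947 in control roots. The treatments did not overlap, but the control libraries were widely spread (log2 fold change -1.22, SE 0.35, adjusted p = 0.0268). A RING/U-box gene (Peaxi162Scf00472g00824.1), of a family with many ubiquitin ligases, had 1, 7 and 3 against 45, 37 and 15 reads (log2 fold change -3.07, SE 0.67, adjusted p = 0.00731). An HXXXD-type acyltransferase gene (Peaxi162Scf00576g00051.1) had 13, 9 and 14 against 55, 21 and 39 reads (-1.61, SE 0.44, adjusted p = 0.0238). These last genes were close to the lower limit of the rule, with few reads in each library. A lectin protein kinase gene (Peaxi162Scf00118g00063.1), which encodes a receptor-type kinase with a concanavalin A-like lectin domain, had 190, 143 and 164 against 372, 223 and 304 reads and just passed (-0.79, SE 0.25, adjusted p = 0.0486). Without W115 mycorrhizal replicate 2 the calls of cytokinin dehydrogenase 5, the acyltransferase and the lectin kinase were lost (adjusted p = 0.0950, 0.0945 and 0.160).

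The last called members had no described function. Peaxi162Scf00668g00028.1 had 25.1, 30.2 and 20.3 RPKM in mycorrhizal W115 roots, against 98.6, 86.5 and 106.5 RPKM in control roots, and no read in ram1 (log2 fold change -1.95, SE 0.19, adjusted p = 0.000467). Peaxi162Scf00583g00028.1 had 17, 15 and 21 against 57, 48 and 34 reads (-1.35, SE 0.31, adjusted p = 0.0215, and 0.0824 without W115 mycorrhizal replicate 2). Just outside the threshold was a gene for L-tyrosine decarboxylase (Peaxi162Scf00152g00237.1), which makes tyramine from tyrosine. It had 0, 3 and 7 reads in mycorrhizal W115 roots, against 149, 9 and 12 in control roots (adjusted p = 0.0514), so its size rested on a single control library.

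**Figure D3:**
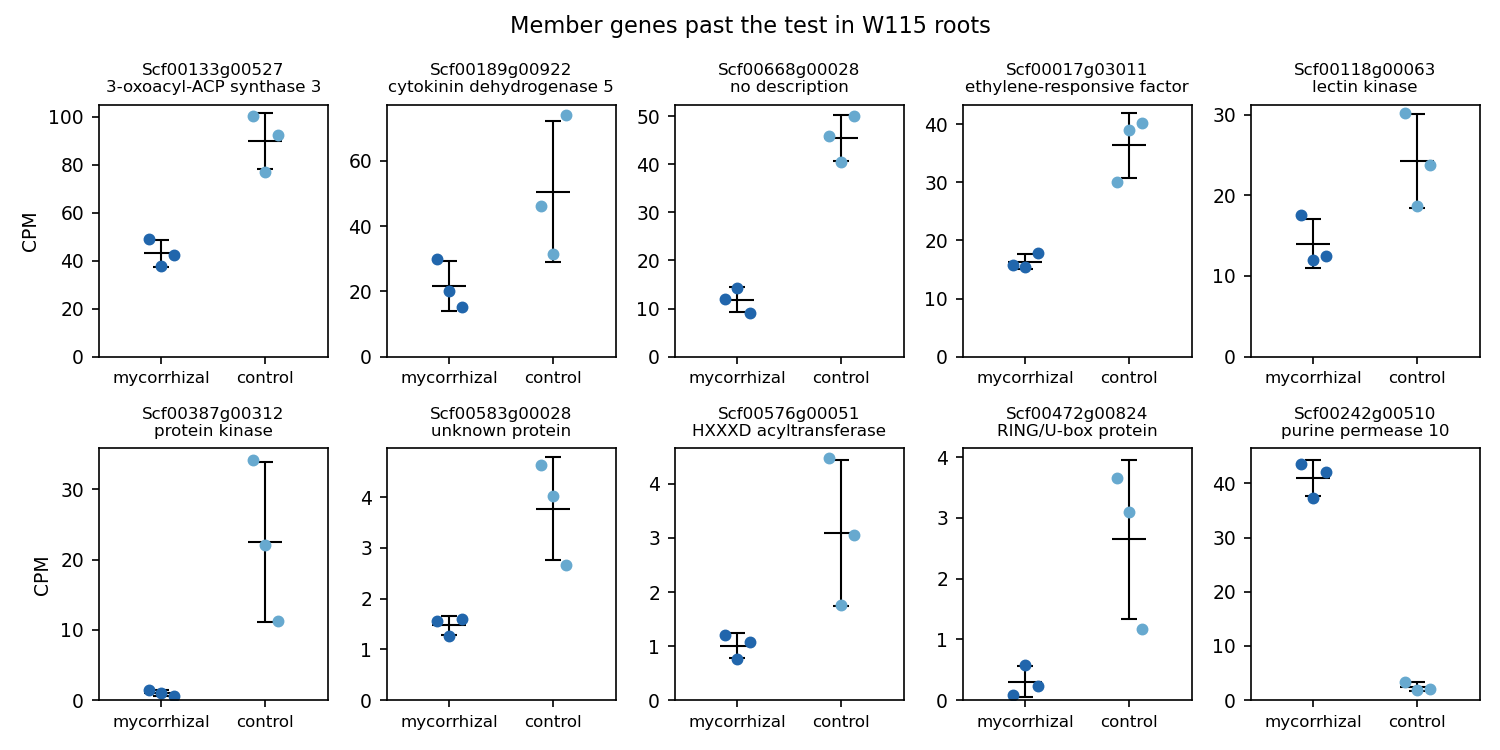
CPM of the 10 members that passed the test in W115, with 3 mycorrhizal libraries (left) and 3 control libraries (right) per gene. Points are libraries, horizontal bars means and whiskers SD. Purine permease 10 is at 41.0 CPM in mycorrhizal and 2.46 CPM in control roots, and the other 9 genes are lower in mycorrhizal roots.

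The 5 HXXXD-type acyltransferase members, enzymes that transfer acyl groups in secondary metabolism, had unequal values within W115. Peaxi162Scf00498g00021.1 had 216, 210 and 74 reads in mycorrhizal and 101, 149 and 206 in control roots. Peaxi162Scf00299g01113.1 had 178, 170 and 46 against 52, 95 and 67 reads, Peaxi162Scf00538g00001.1 had 131, 81 and 72 against 59, 49 and 87, and Peaxi162Scf00086g00011.1 had 37, 42 and 12 against 39, 85 and 98. In these genes the treatments overlapped and the test was not passed. In mycorrhizal replicate 3 each of the 4 genes had its lowest count of the mycorrhizal libraries. By contrast, the 3 DUF2359 members, which encode putative transmembrane proteins, were even. Peaxi162Scf00188g00047.1 had 13.5 ± 1.64 RPKM in mycorrhizal and 14.7 ± 1.11 in control roots, and Peaxi162Scf00980g00013.1 had 9.75 ± 0.445 and 11.1 ± 1.49 RPKM. Between 83.4% and 88.8% of their reads were unique.

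The 106 genes were found on 92 scaffolds of the genome assembly, 81 of which had a single member. How many scaffolds an equal number of other genes would cover was not counted. There were 11 scaffolds with 2 or more members (25 genes), and only the purine permease and ALG14 genes were next to each other. The order of the genes was taken from the numbers in the names of the gene models, as coordinates were not used here. Scaffold 3 had 3 members, a phloem protein 2-B2 gene (Peaxi162Scf00003g00148.1) with 61, 57 and 91 reads in mycorrhizal and 55, 44 and 57 in control roots of W115, and unknown genes with 303, 380 and 363 against 445, 463 and 442 (Peaxi162Scf00003g00427.1) and 29, 38 and 51 against 67, 36 and 35 reads (Peaxi162Scf00003g05356.1). The AP2/B3-like gene Peaxi162Scf00420g00827.1 was on scaffold 420, as is RAM1. It had 17, 25 and 6 reads in mycorrhizal and 20, 37 and 47 in control roots of W115, with 1 read in mycorrhizal and 2 in control roots of ram1. The nearest models to it were read in both lines, with 84.7 CPM in ram1 and 75.0 in W115 control roots for the acyltransferase gene Peaxi162Scf00420g00745.1, and 35.2 and 37.1 CPM for the conserved gene Peaxi162Scf00420g00830.1.

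Whether neighbouring genes share the difference between the lines was asked for the nearest model on each side of a member that was not itself a member. Of 181 such models 127 could be tested between ram1 and W115 control roots. In ram1, 32 (25.2%) were lower and 12 (9.45%) were higher, while over all tested genes without the members 17.1% were lower and 18.9% higher. With a fitted fold of 8 or more, a limit set after the values had been seen, 13 neighbours (10.2%) were lower and 6 (4.72%) higher, against 2.57% and 3.75%. In 26 neighbours (20.5%, against 12.2%) expression was lower in ram1 both with and without the fungus. At distances of 2, 3, 4 and 5 models 22.9%, 23.2%, 28.2% and 20.0% were lower and 15.2%, 29.5%, 23.5% and 21.1% higher, so the share of lower calls did not fall steadily with distance.

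**Figure D4:**
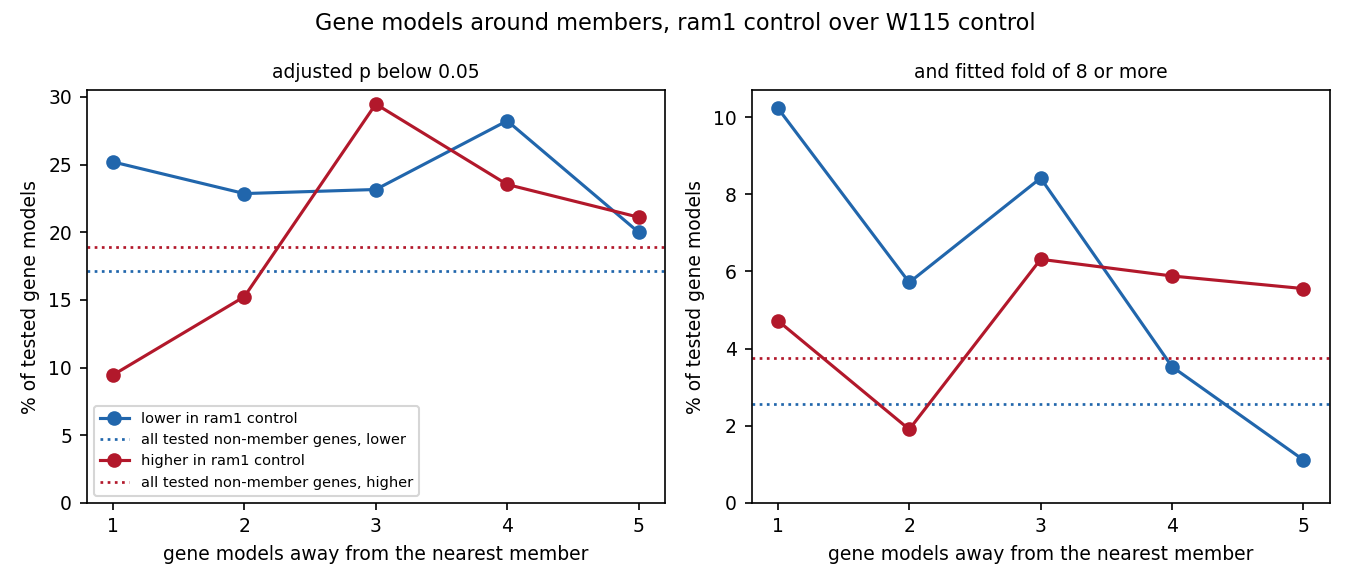
Share of tested gene models called lower (blue) or higher (red) in ram1 control than in W115 control roots, by the number of gene models from the nearest member. The left panel counts all calls and the right panel those with a fitted fold of 8 or more, and dotted lines give the shares over all tested genes that are not members. Calls of lower expression with a fold of 8 or more made up 10.2% beside a member and 5.71%, 8.42%, 3.53% and 1.11% at 2, 3, 4 and 5 models.

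Some neighbours had no read in ram1 but fewer reads in W115 control roots than the rule asked for. A second HXXXD-type acyltransferase gene (Peaxi162Scf00576g00052.1) lies beside the member on scaffold 576 and had no read in ram1, against 24, 19 and 15 reads in W115 control roots. Next to the L-tyrosine decarboxylase gene is another (Peaxi162Scf00152g00238.1) with no ram1 read and 33, 2 and 5 reads in W115 control roots. This was the same order of libraries as in the member. An ABC transporter G gene (Peaxi162Scf00472g00826.1) beside the RING/U-box gene had none in ram1 and 15, 21 and 12 in W115 control roots. Of the 32 neighbours lower in ram1, 5 had no ram1 read and 4 had the same description as the member. Others were the reverse, as a MAP kinase kinase kinase gene (Peaxi162Scf00462g00065.1) had 44, 37 and 67 reads in ram1 control and 0, 0 and 1 in W115 control roots (log2 fold change 6.67, adjusted p = 6.01e-05).

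Scaffold 668 had the most members, 4 of its 23 gene models. Of 12 other models that could be tested, 6 were lower in ram1 control than in W115 control roots, 2 were higher and 4 did not pass. Over all tested genes without the members 17.1% were lower and 18.9% higher, but this scaffold was picked for its members. Among the 6 was the protein kinase gene Peaxi162Scf00668g00443.1, which was just outside the rule. Peaxi162Scf00668g00027.1, with the same coding length as its neighbour Peaxi162Scf00668g00028.1, had 0.0778 CPM in ram1 and 66.1 CPM in W115 control roots. Only 77.5% and 76.8% of the reads of these models were unique, so they may share reads and their values are not independent. A GTP pyrophosphokinase gene (Peaxi162Scf00668g00118.1), of the enzymes that make the alarmone ppGpp, had 0.564 and 46.3 CPM, and a cytochrome P450 gene (Peaxi162Scf00668g00317.1) had 0.149 and 26.7 CPM. Between these genes lay others that were well read in both lines. S-adenosylmethionine synthase 2 (Peaxi162Scf00668g00049.1) had 138 ± 8.70 CPM in ram1 and 80.5 ± 5.45 CPM in W115 control roots, a SNARE gene (Peaxi162Scf00668g00311.1) 52.7 ± 7.43 and 43.7 ± 1.67, and a protein kinase gene directly after the NB-ARC member (Peaxi162Scf00668g00445.1) 57.5 ± 5.68 and 75.3 ± 4.16. The synthase gene was higher and the kinase gene lower in ram1 (log2 fold change 0.77 and -0.39, adjusted p = 0.00798 and 0.00511), and the SNARE gene did not pass the test. The other members here were a Rossmann-fold gene (Peaxi162Scf00668g00120.1), with 25, 37 and 28 reads in mycorrhizal and 47, 19 and 60 in control roots of W115, and an unknown gene (Peaxi162Scf00668g00431.1) with 46, 33 and 29 against 51, 23 and 44.

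**Figure D5:**
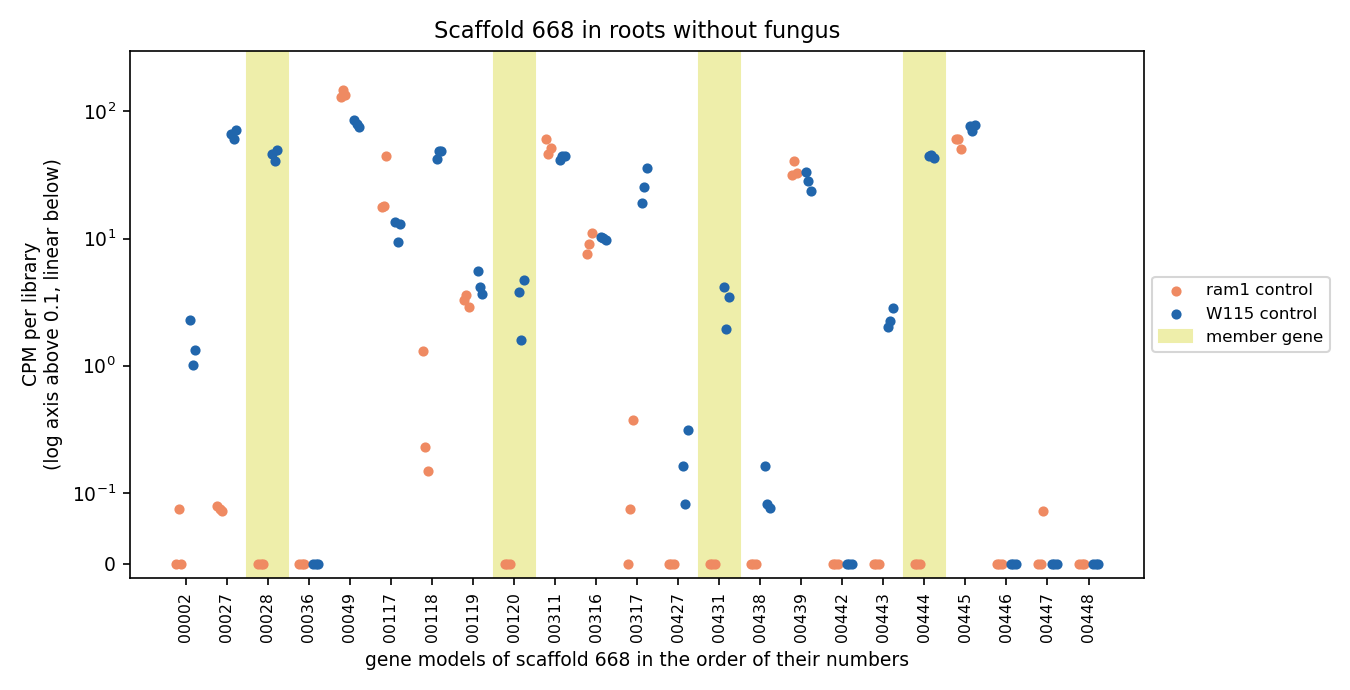
CPM in each of 3 ram1 control (orange) and 3 W115 control libraries (blue) for the 23 gene models of scaffold 668, in the order of their numbers, with the 4 members shaded. The vertical axis is logarithmic above 0.1 and linear below. Genes at or near 0 CPM in ram1 lie among genes that were read in both lines. Runs of such genes include models hardly read in W115 either, as Peaxi162Scf00668g00427.1 and Peaxi162Scf00668g00442.1.

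A gene that is not read in ram1 can have a relative in the genome that is. Of 71 members with a database hit, 56 shared it with another gene model that was not a member and 15 did not. The relative with the highest mean CPM over the ram1 libraries was taken for each, and for 45 members it had a mean of 30 or more reads in ram1 control roots. Over all 56 members the relatives comprised 46 distinct tested genes, of which 11 (23.9%) were higher and 10 (21.7%) lower in ram1 control than in W115 control roots, against 18.9% and 17.1% of all tested genes without the members. As the relatives were picked by their level in ram1, their higher calls are not independent of that choice. A shared hit does not show that the genes do the same, and families with few distinct hits, as the acyltransferases with 78 other models, are poorly resolved.

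For some members the relative was higher in ram1, in the first example with hardly a read in W115. The relative of the Rossmann-fold member of scaffold 668 (Peaxi162Scf00218g00058.1) had 575, 515 and 653 reads in ram1 control roots, against 3, 2 and 2 in W115 control roots (log2 fold change 7.82, SE 0.41, adjusted p = 2.49e-07). For R1, a resistance gene first described in potato, the member Peaxi162Scf01176g10014.1 had no ram1 read and 23, 38 and 46 reads in W115 control roots. Its relative on the same scaffold (Peaxi162Scf01176g00120.1) had 480, 539 and 556 in ram1, against 60, 38 and 42 in W115 (log2 fold change 3.42, SE 0.16, adjusted p = 1.32e-07). Also the relative of the CC-NBS-LRR member with few reads (Peaxi162Scf01226g00019.1) was higher, with 109 ± 16.0 CPM in ram1 and 27.0 ± 2.93 CPM in W115 control roots (log2 fold change 2.01, SE 0.14, adjusted p = 1.58e-06).

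In others the relative did not pass the test or was lower in ram1. The relative of the DUF2359 members (Peaxi162Scf00376g00120.1) had 113 ± 5.94 CPM in ram1 and 123 ± 14.0 CPM in W115 control roots, and that of the quinone reductase member (Peaxi162Scf00537g00078.1) had 205 ± 18.6 and 210 ± 9.69 CPM. Neither passed the test. Fe superoxide dismutase 2 had a relative on the same scaffold (Peaxi162Scf00304g00829.1) with 352, 323 and 309 reads in ram1, against 1534, 1063 and 980 in W115 control roots (log2 fold change -1.92, SE 0.28, adjusted p = 0.000357). The most abundant relative of 3-oxoacyl-[acyl-carrier-protein] synthase 3 (Peaxi162Scf00133g00053.1), also on the scaffold of its member, was lower in ram1 with 1353, 1087 and 1247 reads, against 2479, 2343 and 3368 in W115 control roots (log2 fold change -1.20, SE 0.23, adjusted p = 0.00184). For purine permease 10 the relative with most reads in ram1 (Peaxi162Scf00117g00094.1) had 25.8 ± 6.73 CPM in ram1 and 30.9 ± 5.63 CPM in W115 control roots, and did not pass the test.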

How the data were processed

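RNA from 12 petunia root samples was sequenced. The authors trimmed the paired reads, aligned them to Petunia axillaris transcripts in the CLC Genomics Workbench and deposited counts per gene model (total and unique gene reads), with an intact pair counted as 2. The deposited RPKM of the authors divide total reads by coding length and by the total gene reads of the library. The fold changes and p values of the authors' proportion test and the group means in the tables were not used.

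The 2 tables were joined by gene model. The members, gene lists and tests were chosen with earlier results of these data known. Total reads were scaled by TMM in edgeR 4.0.16 (R 4.3.3), and CPM are on this scale. Genes with a mean of 10 or more reads in at least 1 of 4 groups entered 1 quasi-likelihood model of all 12 libraries, with Benjamini-Hochberg adjustment over all tested genes and a threshold of 0.05. SDs are over 3 libraries. The p values measure the spread between plants of 1 experiment. The test was checked on simulated data. Between ram1 and W115 the members were not tested, as the rule uses this difference, and lists were described by counts alone.

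The rule for named genes covers the 15 described members with the highest RPKM in W115 control roots, all called members, up to 3 members per list, the members of the scaffolds with most members, genes at the limits, relatives of described members by best database hit and 5 genes for the labels. Some relatives are not given, and neighbours, families and further relatives were named after their values had been seen. Alternatives were DESeq2 1.42.0, its size factors, library totals, filterByExpr, no filter, unique reads, a replicate block, the 6 libraries alone and leaving out each library.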

Additional observations from a re-analysis of the deposited data

How the results depend on the processing

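The number of members depended on the limits of the rule. It was 46 with no read allowed in ram1, 181 with up to 10 reads, 233 with a control mean of 10 and 37 with a control mean of 100. With unique reads it was 110, with TMM-scaled counts 94, and without 1 library 101 to 121. The number of members called in W115 (10) was 9 to 14 under the other scalings, filters and tools, and 16 (3 higher, 13 lower) with the 6 W115 libraries alone. The share of all genes called in that last fit is not given here, so the 16 cannot be set against it. Leaving out 1 library gave 6 to 11, with 6 without W115 mycorrhizal replicate 2. Of the 10 called members 6 kept the call under all 20 alternatives. These were purine permease 10, the protein kinase on scaffold 387, 3-oxoacyl-[acyl-carrier-protein] synthase 3, the ethylene-responsive factor, the RING/U-box gene and the gene on scaffold 668. The other calls were lost without single libraries, in adjusted p as follows. Cytokinin dehydrogenase 5 had 0.0950, 0.0999 and 0.108 without W115 mycorrhizal replicates 2 and 3 and control replicate 3. For the acyltransferase it was 0.0945 or 0.0648 (mycorrhizal replicate 2 or 3 left out) and 0.0896 or 0.0512 (control replicate 1 or 3 left out). The lectin kinase had 0.0914 to 0.160 with any 1 of the same 4 libraries left out, 0.0590 without ram1 mycorrhizal replicate 2 and 0.0545 with no filter. The gene on scaffold 583 had 0.0559 to 0.0824 with any 1 W115 library but control replicate 3 left out. Of 30 named members not called, 5 passed under at least 1 alternative and none turned in direction with a call. Over all genes 4983 were called in W115 (3455 to 5291 without 1 library, 5638 with DESeq2). Neighbours lower in ram1 numbered 28 to 37 under every alternative but 2: 78 with 3 models on each side (56 higher) and 13 with a fold of 8 or more. Without 1 library they were 29 to 33. The cause of these shifts was not tested. Replicate numbers did not pair the samples (correlation of deviations -0.084, 0.037 and -0.046 between the W115 treatments). With a replicate block 10 members, 4745 genes and 31 neighbours were called, and among named members the block ended only the call of the gene on scaffold 583 (0.0546).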
